A study of Homo sapiens with 7 samples.

Results

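The miR-23, miR-24 and miR-27 microRNAs were described in 7 cell lines, by the 5 TaqMan assays named miR-23a, miR-23b, miR-24, miR-27a and miR-27b among the 377 human microRNA assays of the card. The assays were chosen by name, and all 5 were present on every card. The samples were 3 oligometastatic L1-R2 lines (4T, 3T and 8T, named MDA-MB-435-L1-GFP and Ol-like in the labels) and 4 polymetastatic L1Mic-R2 lines (numbered 2T, 3T, 7T and 8T, and named MDA-MB-435-L1Mic and Poly-like). Every line descends from MDA-MB-435-GFP, a human tumor line that stably expresses green fluorescent protein, and was grown out of the lung of a separate athymic mouse under G418 selection, a drug that spares the labelled tumor cells. The first group came from mice given L1-R1 cells, taken from visible lung metastases, and the second from mice given L1Mic-R1 cells, taken from the part of the same lung that was free of them, and each group is a small number of selected derivatives of it. The readout was the threshold cycle (Ct), the PCR cycle at which a well crosses a set fluorescence, so that 1 cycle less stands for about a doubling of RNA. A well that never crossed is listed as Undetermined and was given a Ct of 40, and a Ct below 38 was called detected.

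These microRNAs come from a pair of paralogous clusters. MIR23A, MIR27A and MIR24-2 are cut from the transcript of MIR23AHG, and MIR23B, MIR27B and MIR24-1 lie within the gene AOPEP, so that the members of a cluster can be made from 1 primary transcript. MiR-24 is the same mature sequence in both. The family is widely expressed and is known from endothelial, muscle and tumor cells. MiR-23a and miR-23b are known to act on glutaminase, miR-27a and miR-27b on regulators of fat cell formation and of sprouting, and miR-24 on cell cycle and apoptosis genes, and the transcription factor MYC is known to repress both clusters.

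The mature sequences are shown because they set what each assay can tell apart. They are those of RefSeq (GRCh38.p14) for the 3p arms, which the names of the card without an arm stood for, and the sequence to which each assay was designed is not given in the sources used here. Capitals mark the seed, bases 2 to 8.
miR-23a: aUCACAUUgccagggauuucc
miR-23b: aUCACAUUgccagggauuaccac
miR-27a: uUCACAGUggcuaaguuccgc
miR-27b: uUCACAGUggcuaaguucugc
miR-24: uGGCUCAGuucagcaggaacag
Counted from the 5′ end and with the a form first, miR-23a and miR-23b differ by U19A over 21 aligned bases, and miR-23b carries 2 further bases at its 3′ end. MiR-27a and miR-27b differ by C19U. The seeds are thus shared within each pair. By name, no other assay on the card matched a RefSeq microRNA with the seed of a member. Assays without a match to a RefSeq name were not examined. MIR23A, MIR27A and MIR24-2 lie within 373 bases of chromosome 19 (13836287 to 13836659, minus strand). MIR23B, MIR27B and MIR24-1 span 881 bases of chromosome 9 (95085208 to 95086088, plus strand).
The hairpins of miR-24 are shown because both hold the same mature sequence, here in capitals, so that the assay reads their sum.
MIR24-2: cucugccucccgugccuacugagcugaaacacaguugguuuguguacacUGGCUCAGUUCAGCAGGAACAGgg
MIR24-1: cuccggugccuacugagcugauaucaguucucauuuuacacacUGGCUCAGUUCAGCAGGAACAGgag

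The 5 assays spanned almost the whole range of the card. MiR-24 was among the earliest microRNAs to cross the threshold and miR-27a lay in the middle. MiR-27b ran from a raw Ct of 32.79 to Undetermined and miR-23a from 35.53 to Undetermined. MiR-23b was Undetermined in all 7 lines. Each comparison between assays below is of Ct as deposited. The assays were not calibrated against each other, so that a gap between them holds both the amount of RNA and the efficiency of each assay, whose part was not tested.

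Values are given in the order 4T, 3T, 8T for the oligometastatic L1-R2 lines and 2T, 3T, 7T, 8T for the polymetastatic ones. MiR-24 had a raw Ct of 21.97, 22.03 and 22.62 in the oligometastatic lines. The polymetastatic lines were at 21.52, 21.61, 21.78 and 22.27. All polymetastatic lines but 8T thus lay below every oligometastatic line, and 8T lay within their range. Counted from the lowest Ct among the microRNAs of each card that had one, miR-24 ranked 7th, 5th and 7th in the oligometastatic lines and 3rd, 5th, 6th and 5th in the polymetastatic ones.

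MiR-27a had a raw Ct of 27.84, 28.41 and 28.27 in the oligometastatic lines. The L1Mic-R2 lines were at 28.04, 28.39, 28.94 and 28.51. The groups overlapped, and the 7 lines spanned 1.10 cycles for miR-27a, as for miR-24. The rank of miR-27a ran from 50th in L1Mic-R2 line 8T to 64th in line 7T.

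MiR-27b, the paralog of miR-27a on chromosome 9, varied far more. Its raw Ct was 38.59, 34.26 and 38.35 in the L1-R2 lines and 32.79, 36.72, Undetermined and 36.27 in the L1Mic-R2 lines. It was detected in 1 of 3 oligometastatic and 3 of 4 polymetastatic lines, and the lines with the most were L1Mic-R2 line 2T and L1-R2 line 3T, 1 of each group. The Ct of miR-27b exceeded that of miR-27a by 4.74 in L1Mic-R2 line 2T and 5.85 in L1-R2 line 3T, and by 7.76 to 10.76 in the other lines with a Ct. In L1Mic-R2 line 7T the excess was at least 11.06, since miR-27b was Undetermined there.

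MiR-23a, which shares a transcript with miR-27a, was later by a wide margin. Its raw Ct was 39.32, 35.53 and 37.58 in the L1-R2 lines and 38.83 and 36.92 in L1Mic-R2 lines 2T and 3T, and it was Undetermined in lines 7T and 8T. It was detected in 2 of 3 oligometastatic and 1 of 4 polymetastatic lines. MiR-27a crossed the threshold between 7.12 and 11.48 cycles before miR-23a in the 5 lines where both had a Ct. MiR-23b, its paralog, gave no Ct on any card.

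**Figure D1:**
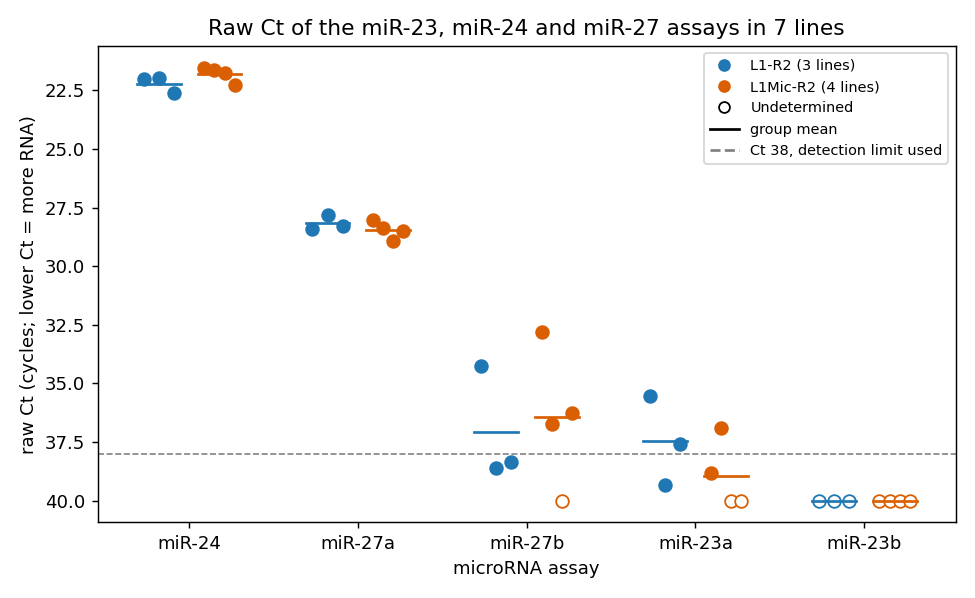
Raw Ct of each assay (vertical axis, in cycles and reversed so that more RNA is higher) in the 3 L1-R2 and 4 L1Mic-R2 lines, with open circles at 40 for Undetermined wells, horizontal bars for group means and a dashed line at Ct 38. MiR-24 lies near 22 and miR-27a near 28 in all 7 lines, miR-27b runs from 32.79 to Undetermined, and miR-23b is Undetermined throughout.

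By median raw Ct over the 7 lines the order was miR-24 (21.97), miR-27a (28.39), miR-27b (36.72), miR-23a (38.83) and miR-23b (Undetermined). The ranges of miR-24 and miR-27a did not overlap each other or those of the other members. MiR-27b and miR-23a overlapped, with miR-27b at the lower Ct in 5 lines, miR-23a in 1, and both Undetermined in 1.

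The files also hold, without a heading, a value for each well that was below the threshold of 0.3 in every Undetermined well and above it in every well with a Ct. It behaves as a fluorescence reading and is called so here. For miR-23a it ranged from 0.322 to 0.578 in the 5 lines with a Ct and was 0.252 and 0.279 in L1Mic-R2 lines 7T and 8T, just under the threshold. For miR-23b it stayed between -0.000338 and 0.145. The plant assay ath-miR159a, which has no target in human RNA, read 0.023 to 0.0865. The readings of miR-23b and the plant assay thus overlapped, and all 7 readings of miR-23a lay above both.

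**Figure D2:**
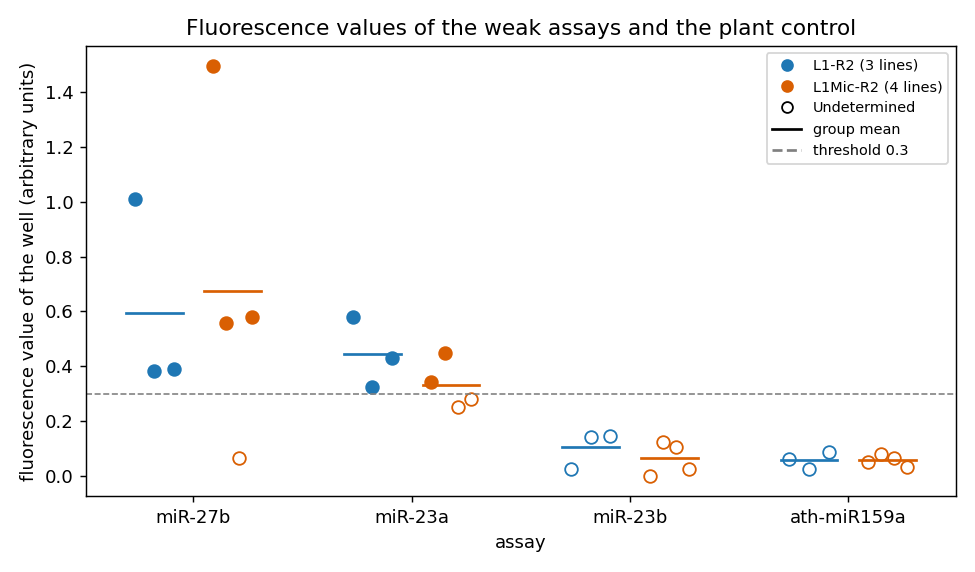
Fluorescence value of each well (vertical axis, arbitrary units) for miR-27b, miR-23a, miR-23b and the plant assay ath-miR159a in the 7 lines, with open circles for Undetermined wells, horizontal bars for group means and a dashed line at the threshold of 0.3. The miR-23a wells lie between 0.252 and 0.578, above all miR-23b wells.

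To set the spread within the clusters beside other clusters, human hairpins within 10000 bases of each other on 1 strand were grouped from RefSeq, which matched 332 of the 377 assays by name. This comparison was chosen after the values were seen and carries no test. In 29 clusters with at least 2 assays, at least 1 of them detected in all 7 lines, the gap between the lowest and the highest mean Ct had a median of 6.88. Undetermined wells entered as 40 in several of these clusters, so that the median is a lower bound. The chromosome 9 cluster had a gap of at least 18.03 cycles, from miR-24 to miR-23b. The chromosome 19 cluster had a gap of at least 16.34, from miR-24 to miR-23a. MIR16-1 and MIR15A had at least 16.56, and like miR-24 the mature miR-16 is made from more than 1 locus. Both gaps start from the same miR-24 value, so that they are not separate observations. Undetermined wells (all 7 of miR-23b, 2 of miR-23a and 1 of miR-15a) make these 3 gaps lower bounds, and no order is read among the clusters with such wells.

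**Figure D3:**
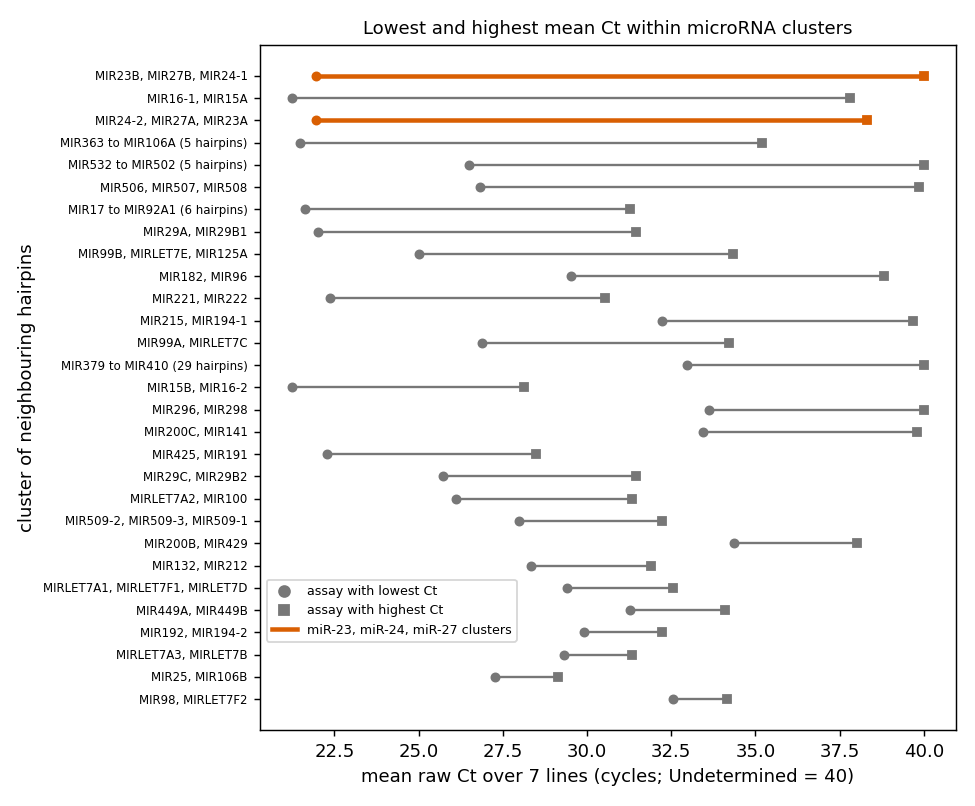
Lowest (circle) and highest (square) mean raw Ct over the 7 lines (horizontal axis, in cycles, with Undetermined as 40) among the assays of each of 29 clusters of neighbouring hairpins (vertical axis), ordered by the gap as computed. The clusters on chromosomes 9 and 19 that hold miR-24, in orange, have gaps of at least 18.03 and 16.34.

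The question put to the members was whether they differed between polymetastatic and oligometastatic lines. Values were quantile normalized across the cards and compared with limma on 40 minus Ct, across 181 microRNAs, each detected in 3 lines or more. Of the 5 members, 4 entered this fit and 0 passed an adjusted p under 0.05 (Benjamini-Hochberg), against 9 of all 181, or 4.97%. At an unadjusted p under 0.05 the members again numbered 0, against 19.3% of all. The log2 fold change was above 0 in 3 of the 4 (53.6% of all) and below 0 in 1 (45.9% of all), and its size reached 1 in 1 of them, miR-27b, against 29.8% of all. The groups of each of the 4 members overlapped, while those of 19.3% of all microRNAs did not. MiR-23b could not be tested.

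MiR-24 had a normalized Ct of 22.14 ± 0.31 (SD, n = 3) in the oligometastatic and 21.76 ± 0.23 (SD, n = 4) in the polymetastatic lines. Its log2 fold change, polymetastatic over oligometastatic, was 0.38 with a standard error of 0.22 and a 95% interval from -0.15 to 0.92 (limma, adjusted p = 0.396). MiR-27a was at 28.49 ± 0.16 (SD, n = 3) and 28.27 ± 0.46 (SD, n = 4), with a log2 fold change of 0.22, a standard error of 0.28 and an interval from -0.47 to 0.91 (limma, adjusted p = 0.721). On this scale a log2 fold change of 1 in either direction lies outside both intervals, while the value of miR-24 relative to RNU44 and RNU48, given below, is itself above 1.

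For the weaker members the lines differed too much within a group for such bounds. MiR-27b had a normalized Ct of 37.86 ± 2.78 (SD, n = 3) in oligometastatic and 36.24 ± 3.03 (SD, n = 4) in polymetastatic lines. Its log2 fold change of 1.62 had an interval from -3.29 to 6.53 (adjusted p = 0.718 from limma). MiR-23a was at 38.18 ± 1.98 (SD, n = 3) and 38.62 ± 1.62 (SD, n = 4), with a log2 fold change of -0.44 and an interval from -3.42 to 2.54 (adjusted p = 0.842 from limma). In both, Undetermined wells entered as 40, so that these values are no measured folds.

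The direction for miR-27a depended on the scale. It was -0.30 for raw Ct, -0.24 against U6 and -0.06 against the mean of the 135 microRNAs found in every line, and 0.51 against RNU44 and RNU48. The median of all 181 microRNAs moved as well, from 0.06 after quantile normalization to -0.25 in raw Ct, -0.19 relative to U6 and 0.56 relative to the RNU pair. Apart from quantile normalization, the scales differ only by a constant per card. A distance from that median is thus the same on each of these by construction. Relative to that median miR-27a was 0.16 higher after quantile normalization and -0.05 on the other scales. MiR-24 was 0.32 above the median after quantile normalization and 0.66 above it on the other scales, and its log2 fold change was positive on all of them, from 0.38 to 1.21. By limma, its unadjusted p was under 0.05 relative to RNU44 and RNU48 (adjusted p = 0.229 from limma) and relative to the detected microRNAs (adjusted p = 0.164 from limma). U6 spanned 0.80 cycles over the 7 lines, RNU44 2.29 and RNU48 2.16. The mean raw Ct of U6 was 16.32 in oligometastatic and 16.38 in polymetastatic lines. For RNU44 the means were 24.69 and 25.58, and for RNU48 19.83 and 20.55. The RNU pair itself was thus later on average in the polymetastatic lines, and values relative to it include that shift.

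**Figure D4:**
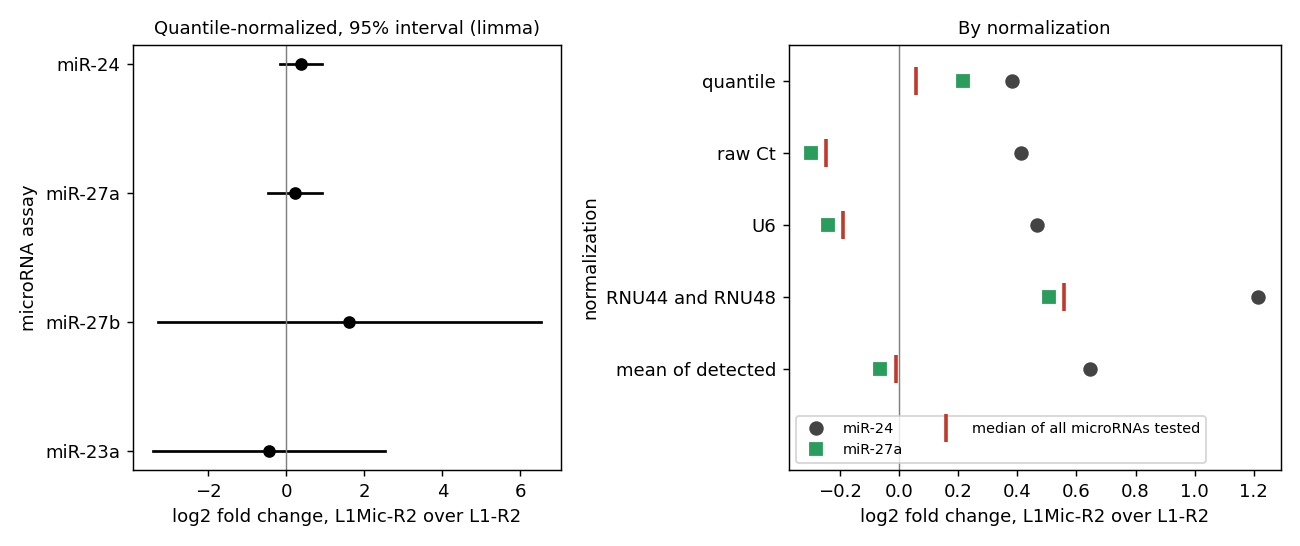
Log2 fold change from limma (horizontal axes), with positive values for more RNA in L1Mic-R2. Left, the 4 tested members after quantile normalization with 95% intervals, all of which include 0. Right, miR-24 (circles) and miR-27a (squares) under 5 normalizations (vertical axis), with the median of all tested microRNAs as red bars. MiR-24 lies above the median and miR-27a near it, at a distance that is the same by construction under all but quantile normalization.

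Since miR-24 and miR-27a were measured on the same card, their difference within a line needs no normalization that subtracts 1 value per card. This contrast was chosen after the data were seen, as the only pair of members with a Ct in every line. The raw Ct of miR-27a exceeded that of miR-24 by 5.86, 6.38 and 5.65 cycles in the oligometastatic lines. In the polymetastatic lines it was by 6.52, 6.78, 7.16 and 6.24 cycles. Only L1Mic-R2 line 8T lay below the highest oligometastatic line. The mean gap was 5.97 ± 0.38 (SD, n = 3) against 6.67 ± 0.39 (SD, n = 4), a difference of 0.71 (exact two-sided permutation test, p = 0.0857, and 0.257 after Benjamini-Hochberg adjustment over 3 contrasts). After quantile normalization, which replaces a value by that of its rank, the difference was 0.16 (exact two-sided permutation test, p = 0.514, adjusted 0.629). The smallest p that 3 lines against 4 allow is 0.0286.

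**Figure D5:**
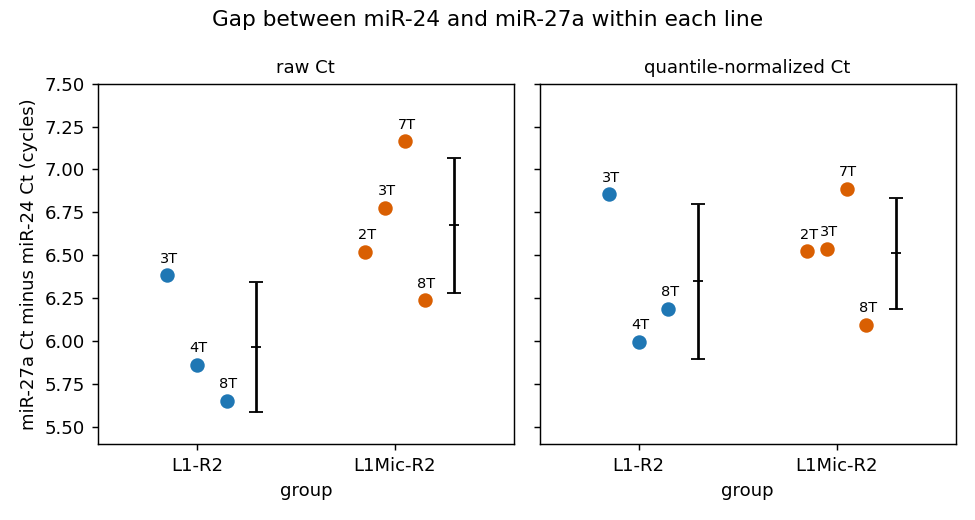
Ct of miR-27a minus Ct of miR-24 (vertical axis, in cycles) in each line, by group, for raw Ct (left) and quantile-normalized Ct (right), with the mean and SD of each group as bars. In raw Ct the gap runs from 5.65 to 6.38 in L1-R2 and from 6.24 to 7.16 in L1Mic-R2, and after normalization the groups overlap more widely.

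Between the paralogs, miR-27b minus miR-27a on the normalized log2 scale was -9.37 ± 2.92 (SD, n = 3) in oligometastatic and -7.97 ± 2.63 (SD, n = 4) in polymetastatic lines. The difference of 1.40 was smaller than either SD (exact two-sided permutation test, p = 0.486, adjusted 0.629). Within the chromosome 19 cluster, miR-27a minus miR-23a was 9.69 ± 2.13 (SD, n = 3) and 10.35 ± 1.58 (SD, n = 4), and the difference of 0.66 was again within the spread (exact two-sided permutation test, p = 0.629, adjusted 0.629). Both contrasts hold Undetermined wells. Contrasts with miR-23b had no measured value.

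MiR-24 and miR-27a each varied little over the lines, with an SD in raw Ct of 0.38 and 0.35. The difference between miR-27a and miR-24 had an SD over the 7 lines of 0.36 on the normalized scale, where the 9045 pairs of the 135 microRNAs detected in all lines had a median of 0.73, and 9.51% of the pairs were at or below it. For raw Ct the SD was 0.52, and 26.5% of pairs were at or below it. By the same measure the microRNAs most like miR-24 were miR-100 (SD of the difference 0.13), miR-92a (0.19) and miR-155 (0.19), with miR-27a 30th of 134. Those most like miR-27a were miR-125b (0.17), miR-28-5p (0.24) and miR-532-3p (0.25), with miR-24 16th. This measure is small for any pair of assays that vary little, and does not show that they vary together. The within-group SD of miR-24 was 0.27 and that of miR-27a 0.37, beside a median of 0.38 for the 135.

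Other paralogous pairs on the card give a measure for miR-27a and miR-27b. Of 17 such pairs, 12 had both members detected in every line. Their within-line difference had an SD from 0.18 (miR-30b and miR-30c) to 1.38 (miR-200b and miR-200c), with a median of 0.42, and the value for miR-27a and miR-27b, Undetermined once, was 2.62. Their mean gap in raw Ct ran from 0.21 to 8.49, the latter for miR-146a and miR-146b-5p, and that between miR-27a and miR-27b was at least 8.37. The other 5 pairs, like miR-27a and miR-27b, had a member that was not detected in every line. Their SD ran from 0.95 to 1.47 and their gap from 3.92 to 9.68, the latter for miR-15a and miR-15b.

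MicroRNAs that MYC is known to repress, other than the members, were taken as a list of 17, of which 15 were tested. At an unadjusted p under 0.05, 5 were lower and 0 higher in L1Mic-R2, against 9.94% of all microRNAs lower and 9.39% higher, and 0 passed the adjusted threshold. Their median log2 fold change was -0.26 against 0.06 for all 181. It was 0.24 with RNU44 and RNU48, where the median of all was 0.56, so that the difference from all microRNAs was -0.32 on both scales, and on the latter 0 of the 15 were lower at that p. The number lower was 9 with U6 and 1 with either replicate block, which rests on the same-numbered lines alone. The number past the adjusted threshold was 2 with U6, with Ct limited to 35 or among microRNAs detected throughout, 1 relative to the mean of the 135 and 4 with a trended, robust fit. The smallest p was that of miR-26a, a microRNA known to restrain cell growth. Its normalized Ct was 27.44, 27.37 and 27.77 in oligometastatic and 28.32, 28.17, 28.32 and 28.32 in polymetastatic lines. In raw Ct these were 27.08, 27.54 and 27.54, and 28.44, 28.26, 28.24 and 29.00. The equal normalized values come from equal ranks, so that normalization narrowed the spread among the polymetastatic lines. All polymetastatic lines thus lay above all oligometastatic ones in Ct (log2 fold change -0.75, standard error 0.16, adjusted p = 0.0545 from limma). Of the 6 microRNAs of the cluster that MYC is known to activate, 1, miR-18a, passed the adjusted threshold, against 3.31% of all microRNAs higher and past it. The log2 fold change was above 0 in 4 of the 6 (53.6% of all) and below 0 in 2 (45.9% of all). Its median was 0.29 against 0.06 for all 181. Apart from miR-18a the values ran from -0.13 to 0.41, at an adjusted p of 0.396 or more from limma. MiR-18a had a raw Ct of 31.74, 32.69 and 31.63 in oligometastatic and 30.80, 30.71, 30.31 and 30.97 in polymetastatic lines, with no overlap. Its log2 fold change was 1.72 with a standard error of 0.31 (limma, adjusted p = 0.0392). This call was lost when any single line was left out, in raw Ct, with RNU44 and RNU48, without a detection filter and with either replicate block. MYC itself was not measured.

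The identity of the lines was read from marker microRNAs. MDA-MB-435 is now regarded as a line of melanocytic origin. Of the melanocyte-linked markers miR-204 was detected in all 7 lines (log2 fold change -0.59, adjusted p = 0.208 from limma). MiR-211 was detected in 5, being Undetermined in L1Mic-R2 lines 2T and 8T (log2 fold change -6.57, adjusted p = 0.267 from limma). The fibroblast markers miR-143, miR-145 and miR-214 and the red cell marker miR-451 were Undetermined in all 7, while the fibroblast marker miR-199a-3p was detected in 3. Of white cell markers miR-142-3p was detected in 2 lines, both of them L1-R2. MiR-223 was detected in 4 (log2 fold change 3.07, adjusted p = 0.245 from limma) and miR-150 in 5 (log2 fold change -3.35, adjusted p = 0.220 from limma). The epithelial markers miR-200c and miR-200b were detected in all 7 lines and miR-203 in 2, and miR-141 and miR-205 in 0. The log2 fold change was -1.28 for miR-200c (adjusted p = 0.608 from limma) and -1.39 for miR-200b (adjusted p = 0.176 from limma). In such lines fewer cells of a type and less RNA per cell cannot be told apart. MiR-126, an endothelial microRNA, was detected in all 7 lines, with a raw Ct of 32.46 to 35.06 in L1-R2 and 28.71 to 32.41 in L1Mic-R2 (log2 fold change 3.44, standard error 0.98, adjusted p = 0.104 from limma). Endothelial cells are also known for miR-23, miR-24 and miR-27, and the part of such cells in the values of the members was not tested.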

How the data were processed

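Total RNA (30 ng) was reverse transcribed and measured on 1 TaqMan MicroRNA Array A card v2.0 per line. The authors deposited Ct values in cycles, a log2 scale on which less is more, imported with SDS RQ Manager according to the paper, with a threshold of 0.3 and a baseline from cycle 3 to 15 or 18. Undetermined wells have an average Ct of 40. The deposited files also hold an unheaded score per well, described in the text as a fluorescence reading. The version of that software and a genome build are not given in the sources used here.

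Ct of 381 assays was quantile normalized across the 7 cards, as in the paper, with limma 3.58.1 in R 4.3.3. Single microRNAs were compared by lmFit and eBayes, and within-line differences by exact permutation over the 35 assignments of lines, with adjustment over 3 contrasts. Contrasts with miR-23b, planned, were not computed because no line has a Ct. Figures used matplotlib 3.10.9. The alternatives were other normalizations, filters and fits, the line number as a replicate block, and leaving out 1 line at a time. The members, lists and tests were chosen with earlier results of these data known. The text names the members, the controls, the 3 microRNAs most like miR-24 and miR-27a, the extreme paralogous pairs and, of each MYC list, those past the threshold or the one with the smallest p. MiR-15a with miR-16 and miR-126 were named after their values were seen.

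Groups and line numbers follow the labels. The file names exchange the numbers of 3T and 4T in L1-R2, which affects the block alone. The labels give the line numbers without tying them to animals, and the paper says that the lines came from separate animals. Card numbers ran from 1 to 3 in L1-R2 and from 4 to 7 in L1Mic-R2, so that card order and group cannot be told apart. On simulated data with 20 of 181 microRNAs changed by 3 on the log2 scale, 73.2% of these were recovered in 20 simulations, with 0.5 false calls on average. Each line has a single card, and p-values measure the spread between these lines, which includes the error of the measurement. All lines of a group descend from the same line, L1-R1 or L1Mic-R1. A difference between the groups thus cannot be told apart from a difference between those founders, whose spread no p-value here measures.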

Additional observations from a re-analysis of the deposited data

Results flagged for a closer look

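In 6 Undetermined wells of miR-23a and miR-23b the fluorescence value, which no comparison of groups used, was above the highest reading of the plant assay, 0.0865. For miR-23a these were 0.252 in L1Mic-R2 line 7T and 0.279 in line 8T. Among the 1364 Undetermined wells of human microRNAs, 2.13% read as high as the former and 0.953% as high as the latter. For miR-23b they were 0.142 (4T) and 0.145 (8T) among oligometastatic lines. Among polymetastatic lines they were 0.125 (3T) and 0.105 (7T). In all, 144 of those Undetermined wells, or 10.6%, read above the plant assay. No L1Mic-R2 line stood far from the other 3 in any of the 7 member values and contrasts examined.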

How the results depend on the processing

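Of 110 alternative values, 89 kept the direction and the side of the threshold, 11 were weaker, 2 stronger and 8 reversed. For part of the 89 the direction was fixed in advance. Detection filters and a trended fit leave a fold change unchanged, and limiting Ct to 35 does not alter miR-24 or miR-27a. No member passed an adjusted p under 0.05 under any setting run. The log2 fold change of miR-27a, 0.22, was -0.30 in raw Ct, -0.24 relative to U6 and -0.062 relative to the mean detected microRNA. The count of microRNAs past the adjusted threshold, 9, was 14 among those detected in all 7 lines and 21 with a trended, robust limma fit. It was 0 with RNU44 and RNU48 (37 unadjusted) and 0 without a detection filter (42). With the line number of the labels as a replicate block it was 0 (19 unadjusted), and with that of the file names 0 (27). Only the numbers 3 and 8 occur in both groups. Fits with either block thus rest on the same-numbered lines alone, and the labels do not tie the numbers to animals. Same-numbered lines did not deviate together (correlations across microRNAs of -0.04 and -0.20, or 0.02 and -0.20 by file names). With the block of the file names miR-23a was 0.84 and miR-27a minus miR-23a was -0.52, miR-27b was 3.33 (unadjusted p = 0.00838, adjusted p = 0.222 from limma) and miR-27b minus miR-27a was 3.01. With the block of the labels miR-24 minus miR-27a was -0.20, miR-27b 0.79 and miR-27b minus miR-27a 0.31. MiR-27b, 1.62, was 0.44 with Ct limited to 35, 0.63 in raw Ct, 0.68 relative to U6 and 0.86 relative to the mean detected microRNA. Leaving out each line, the count ran from 0 to 4, miR-23a from -1.22 to 0.0496, miR-24 from 0.28 to 0.64, miR-27a from 0.08 to 0.43 and miR-27b from 0.41 (without L1Mic-R2 line 2T) to 3.14 (without L1-R2 line 3T). In those fits miR-27b minus miR-27a ran from 0.30 to 2.97, miR-27a minus miR-23a from -0.44 to 1.51 and miR-24 minus miR-27a from 0.0051 to 0.47. Without L1-R2 line 3T, miR-24, at 0.64, had an unadjusted p of 0.0336 and an adjusted p of 0.188 by limma. MiR-23a gives no value with Ct limited to 35, among microRNAs detected in all lines or without any of the 3 lines that detect it, and miR-27b none among microRNAs detected in all lines. The cause of these changes was not tested. A Ct near 40 or an Undetermined well limits miR-23b in all lines, and miR-23a and miR-27b in part of them.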

Other observations

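The fluorescence value of miR-27a ranged from 3.09 to 4.36 over the 7 lines and that of miR-24 from 2.09 to 2.84, so that every miR-27a well read higher than every miR-24 well although it crossed the threshold later.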
